A study of Homo sapiens with 27 samples.

Results

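The mRNA of 9 genes of the NRF2 axis and thiol redox control was followed in colorectal cancer (CRC) cells made resistant to 5-fluorouracil (5-FU) or oxaliplatin (OX). The genes were NFE2L2, KEAP1, NQO1, HMOX1, GCLC, GCLM, SRXN1, TXNRD1 and SLC7A11, found by symbol among 26255 genes in each table, and all 9 were found. HCT116, SW480 and DLD-1 are established human CRC lines. Each was sequenced as untreated cells (WT), as cells kept in 5-FU at 5 to 70 µM (5-FU res) and as cells kept in OX at 5 to 35 µM (OX res), both for about 6 months, with 3 libraries in each of 9 groups and 27 in all. The sources say neither whether WT cells were passaged alongside nor whether a group's 3 libraries are separate cultures, so the p-values measure the spread between libraries, which may be technical. Resistance of the DLD-1 populations is as the labels name it, since the methods of the study do not name DLD-1. The sources describe a single resistant population per line and drug, and the DLD-1 libraries carry a library name series of their own, so line and library series cannot be told apart.

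NRF2, the protein of NFE2L2, is a transcription factor that KEAP1 holds in the cytoplasm and passes to a ubiquitin ligase. When electrophiles or oxidants modify cysteines of KEAP1, NRF2 escapes degradation, pairs with a small MAF protein and binds antioxidant response elements near its target genes. NRF2 is governed mainly at the protein level, so the mRNA of NFE2L2 and KEAP1 is not a measure of NRF2 activity, and no protein was measured here. The targets followed here bring in cystine (SLC7A11), make glutathione (GCLC, GCLM), reduce thioredoxin and peroxiredoxins (TXNRD1, SRXN1), and handle quinones and heme (NQO1, HMOX1).

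The core letters of an antioxidant response element, TGACNNNGC on either strand, were searched in the RefSeq promoter windows of these genes (build GRCh38.p14, 250 bases before to 50 after a start), and no other motif was searched. RefSeq windows were matched for 7 genes with 10 windows, and HMOX1 and SLC7A11 had no entry. The letters stood in 4 of the 10 windows, which belong to KEAP1, GCLM and TXNRD1, against 13.3% of all 35116 RefSeq windows. By gene this was 3 of the 7, against 16.1% of 27305 symbols. Sequence outside the windows was not searched, so a gene without a match lacks it only there. KEAP1 had 2 windows, and both its matches lay in 1 of them, so the start named for KEAP1 is that window's. A match is a description of the sequence and not a bound site. The 6 matches are shown because the sensor and a target of each thiol system carry them. Each is written 5′ to 3′ on the strand of its gene with 10 flanking bases per side, capitals mark the matched letters, and the coordinates are those of the single exact match on that chromosome of GRCh37.
KEAP1 (chr19:10613483-10613511, minus strand, 54 bases before the start): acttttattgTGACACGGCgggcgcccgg
KEAP1 (chr19:10613460-10613488, minus strand, 31 bases before the start): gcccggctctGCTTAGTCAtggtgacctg
GCLM (chr1:94375002-94375030, minus strand, 34 bases before the start): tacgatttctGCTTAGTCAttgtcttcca
TXNRD1 (chr12:104609448-104609476, plus strand, 99 bases before the start): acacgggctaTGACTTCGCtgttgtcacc
TXNRD1 (chr12:104609539-104609567, plus strand, 8 bases before the start): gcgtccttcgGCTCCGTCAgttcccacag
TXNRD1 (chr12:104680698-104680726, plus strand, 102 bases before another start): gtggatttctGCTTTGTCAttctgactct
The GCLM stretch and the KEAP1 stretch nearer the start held the same 9 capital letters. By the GENCODE annotation lifted to GRCh37, the TXNRD1 stretch 99 bases before the start lay upstream of every annotated transcript, and the other stretches overlapped an exon of at least 1 annotated transcript of their gene.

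The values below are TPM, made from the deposited FPKM by dividing by the library sum, which allows levels of different genes to be compared per length. Replicate libraries correlated at 0.991 to 0.995 over genes on the log2(TPM + 1) scale, and no pair of libraries was identical. Depth relative to the first HCT116 WT library, read from the lowest FPKM steps, ran from 0.721 to 1.13. Sums of 10 epithelial marker genes were 5716 to 21178 TPM per library. The 7 fibroblast markers summed to 0.464 to 18.2, the 6 leukocyte markers to 4.31 to 71.1 and the 5 endothelial markers to 0.196 to 5.30 TPM, with PTPRC, which defines leukocytes, at most 0.116 TPM. Within these sums, markers moved in OX res of HCT116 and SW480, where most of the 9 genes were higher than in WT. They moved in DLD-1 OX res as well, where no log2 fold change of the 9 genes went beyond 1. They moved also in SW480 5-FU res, where mean EPCAM was 105, CLDN7 63.5 and CDH1 3.12 TPM. Against WT, KRT19 (909 to 444 TPM) and CDX2 (44.4 to 5.66) were lower there too. In the same cells KRT8 (4183 to 4632 TPM), KRT18 (3573 to 3716) and VIL1 (6.38 to 10.9) were higher than in WT. From WT to OX res the mean of EPCAM went from 392 to 68.2 TPM in HCT116 and from 323 to 221 in SW480, that of CLDN7 from 209.5 to 14.3 and from 90.3 to 64.5, and that of CDH1 from 29.0 to 3.64 and from 16.9 to 3.03. Of KRT8, KRT18, KRT19 and CDX2, HCT116 OX res was higher for KRT19 (1194 to 1523 TPM) and CDX2 (15.1 to 17.3) and lower for the others. SW480 OX res was higher for KRT8 (4183 to 4959 TPM) and KRT18 (3573 to 4840) and lower for the others. DLD-1 OX res was higher for KRT8 (4683 to 10147 TPM), KRT18 (3099 to 7334) and KRT19 (529 to 1189) and lower for CDX2 (193 to 121). In the same DLD-1 groups EPCAM went from 785 to 891 TPM, CLDN7 from 281 to 212 and CDH1 from 422 to 352. The epithelial sum was 7030 to 7254 TPM in HCT116 WT and 5716 to 6131 in OX res. In SW480 it was 8862 to 9288 TPM in WT, 8791 to 9093 in 5-FU res and 10435 to 11234 in OX res. In DLD-1 it was 9895 to 10227 TPM in WT, 9768 to 10621 in 5-FU res and 19599 to 21178 in OX res. The leukocyte sum was 18.1 to 19.2 TPM in HCT116 WT and 58.2 to 71.1 in OX res, and 8.45 to 9.78 in SW480 WT, 28.9 to 32.4 in 5-FU res and 24.2 to 28.5 in OX res, mostly from CD68, a lysosomal protein of macrophages and other cells (means of 15.4 and 61.5 TPM in HCT116 WT and OX res). The part of these differences in the results was not tested. Ribosomal protein genes took 20.3 to 21.3% of TPM in HCT116 WT, 21.8 to 23.8% in 5-FU res and 10.9 to 11.8% in OX res, 19.9 to 21.1% in SW480 WT against 13.3 to 13.4% in 5-FU res and 15.1 to 15.6% in OX res, and 18.1 to 18.6% in DLD-1 WT against 16.5 to 18.1% in 5-FU res and 13.6 to 14.3% in OX res. TPM is a share, so the log2 fold change of the median gene need not be 0. In OX res against WT it was 0.60 for HCT116, 0.36 for SW480 and 0.13 for DLD-1, and in 5-FU res it was 0.18 for HCT116, 0.44 for SW480 and -0.03 for DLD-1. Each change is therefore given also relative to that median.

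A gene is called higher or lower where limma on log2(TPM + 1) gave a Benjamini-Hochberg adjusted p under 0.05 over all genes tested and a log2 fold change beyond 1, and "rose" and "fell" are used only of such calls. All 9 genes passed the filter on low values in each fit. The fold changes against WT in a line share its 3 WT libraries.

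**Figure D1:**
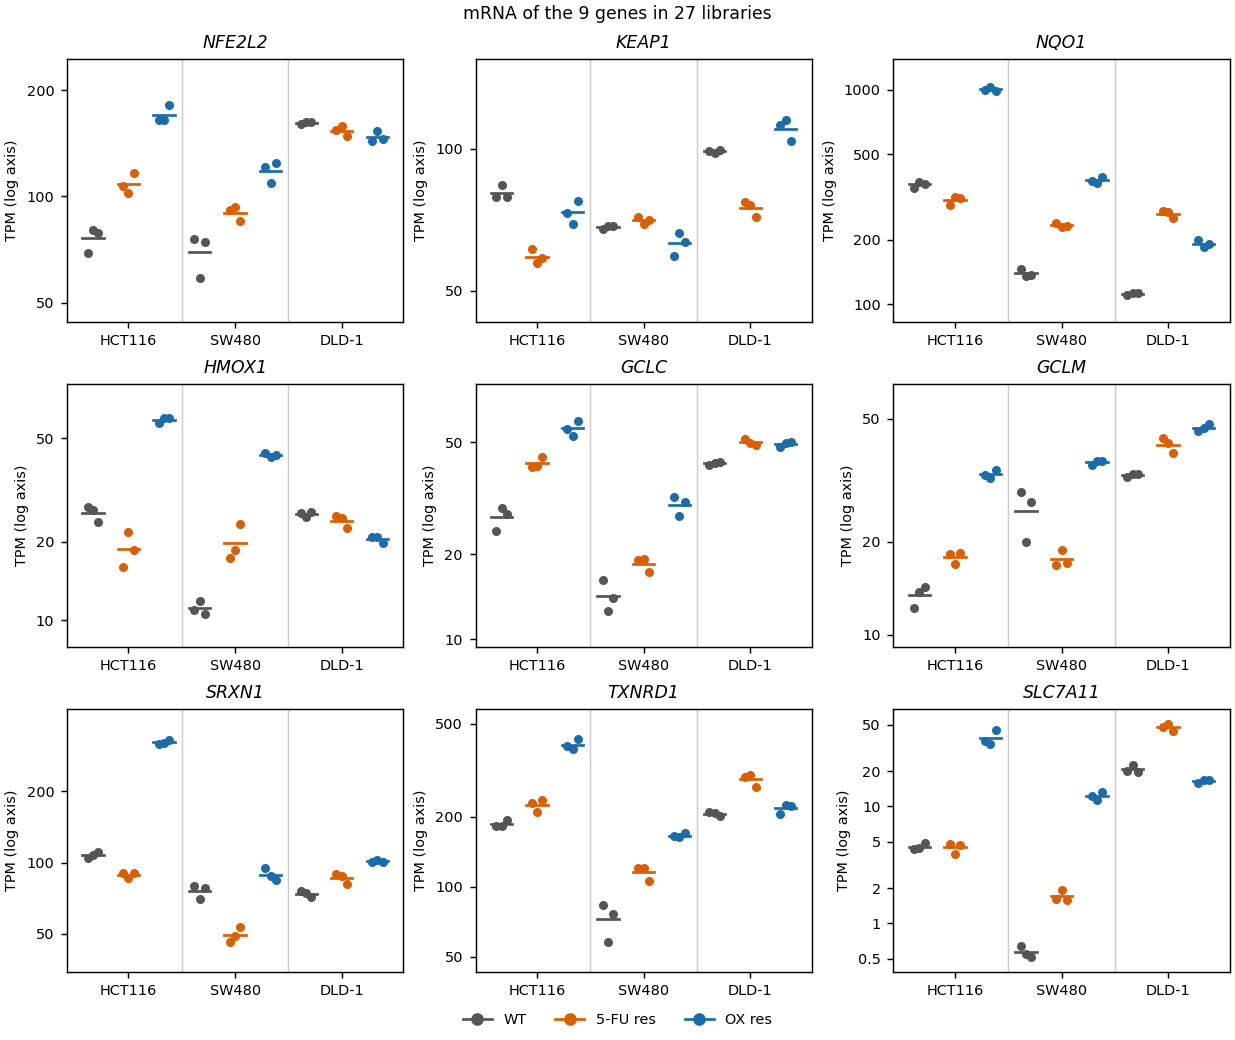
Level of each of the 9 genes in TPM (log axis, a different range per panel) in the 27 libraries, with points for libraries, short lines for group means, and WT, 5-FU res and OX res from left to right within each line. SLC7A11 spans the widest range, from 0.568 ± 0.0621 TPM in SW480 WT to 47.5 ± 3.30 in DLD-1 5-FU res (SD, n = 3), while KEAP1 stays within 57.2 to 115 TPM.

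NFE2L2 (chr2:178083395-178257484, minus strand, coordinates here and below in GRCh37) encodes NRF2 itself. In HCT116 cells it was 69.2, 80.6 and 78.6 TPM for WT, 107, 103 and 116 for 5-FU res and 165, 165 and 182 for OX res. In SW480 cells it was 75.5, 58.9 and 74.2 TPM for WT, 91.3, 93.5 and 85.0 for 5-FU res and 121, 109 and 124 for OX res. In DLD-1 cells it was 160.1, 162 and 163 TPM for WT, 155, 158 and 148 for 5-FU res and 144, 153 and 146 for OX res. The 3 groups of HCT116 did not overlap and nor did those of SW480, with OX res above 5-FU res and 5-FU res above WT, whereas all 9 DLD-1 libraries lay between 144 and 163 TPM. NFE2L2 rose in HCT116 OX res, at a log2 fold change of 1.15 (SE 0.068, limma adjusted p = 1.16e-08). Relative to the median gene that rise was 0.56, and under median-of-ratios scaling it was 0.49, short of the threshold. In SW480 the log2 fold change was 0.76 in OX res and 0.37 in 5-FU res, and in HCT116 5-FU res it was 0.51, none of them called, and the SW480 5-FU res value turned to -0.13 under median-of-ratios scaling. In DLD-1 the intervals lay near 0, at 95% interval -0.17 to 0.02 for 5-FU res and 95% interval -0.22 to -0.04 for OX res.

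KEAP1 (chr19:10596801-10614234, minus strand) encodes the sensor that targets NRF2 for degradation. HCT116 cells held 79.1, 83.6 and 78.8 TPM for WT, 61.2, 57.2 and 58.6 for 5-FU res and 73.0, 69.4 and 77.4 for OX res. SW480 cells held 67.7, 68.7 and 68.7 TPM for WT, 71.6, 69.2 and 70.6 for 5-FU res and 59.3, 66.3 and 63.3 for OX res. DLD-1 cells held 98.9, 98.1 and 99.4 TPM for WT, 77.0, 75.9 and 71.8 for 5-FU res and 112, 115 and 104 for OX res. It was the steadiest of the 9 genes, with a highest group mean 1.87 times the lowest, and it was called in none of the 6 comparisons with WT. The lowest group mean was that of HCT116 5-FU res, whose libraries overlapped SW480 OX res and lay below all HCT116 WT libraries, at a log2 fold change of -0.44 (SE 0.053, limma adjusted p = 1.21e-05), and DLD-1 5-FU res lay below DLD-1 WT at -0.40 (SE 0.049, limma adjusted p = 3.99e-05). In OX res KEAP1 was -0.73 relative to the median gene in HCT116 and -0.48 in SW480, but 0.02 in DLD-1. Its value in SW480 5-FU res changed sign with scaling, from 0.04 in TPM to -0.46 by median-of-ratios.

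SLC7A11 (chr4:139085251-139163503, minus strand) encodes the light chain of the cystine-glutamate exchanger that supplies cysteine for glutathione. HCT116 libraries read 4.32, 4.38 and 4.90 TPM for WT, 4.79, 3.94 and 4.69 for 5-FU res and 36.5, 34.3 and 44.6 for OX res. SW480 libraries read 0.636, 0.551 and 0.516 TPM for WT, 1.61, 1.93 and 1.57 for 5-FU res and 12.3, 11.3 and 13.3 for OX res. DLD-1 libraries read 20.0, 22.5 and 19.7 TPM for WT, 48.0, 50.5 and 44 for 5-FU res and 15.8, 16.7 and 16.8 for OX res. In HCT116 the WT and 5-FU res libraries overlapped and all OX res libraries stood above them, in SW480 the 3 groups were apart in the order WT, 5-FU res and OX res, and in DLD-1 the 5-FU res libraries were highest and the OX res libraries lowest. SLC7A11 rose in HCT116 OX res, where the mean TPM was 8.48 times that of WT, at a log2 fold change of 2.83 (SE 0.11, limma adjusted p = 3.37e-10). It rose in SW480 OX res as well, to 21.7 times the WT mean, at 3.08 (SE 0.11, limma adjusted p = 7.58e-09), and the pseudocount of 1 makes this log2 value smaller than the TPM ratio because the WT libraries were below 1 TPM. The rise in DLD-1 5-FU res was 1.16 (SE 0.071, limma adjusted p = 1.08e-07). These 3 calls held under median-of-ratios scaling, at 2.22, 2.83 and 1.18. In SW480 5-FU res the mean was 3 times that of WT, with a log2 fold change of 0.79 (SE 0.11, limma adjusted p = 5.85e-05) that was not called, though it was called at 1.43 with a pseudocount of 0.1. In HCT116 5-FU res the value was -0.02 (95% interval -0.26 to 0.22), but it was -0.24 by median-of-ratios (limma adjusted p = 0.0198), -0.18 with FPKM (0.0473), -0.43 by quantile normalization (0.000832) and -0.57 with the length trend removed (0.000521), not called in any, and in DLD-1 OX res the value was -0.32 (SE 0.071, limma adjusted p = 0.00292), not called.

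GCLC (chr6:53362139-53481768, minus strand) encodes the catalytic subunit of glutamate-cysteine ligase, the rate-limiting enzyme of glutathione synthesis. In HCT116, GCLC was 24.1, 29.2 and 27.9 TPM for WT, 41.0, 41.1 and 44.6 for 5-FU res and 55.7, 52.9 and 59.8 for OX res. In SW480, GCLC was 16.2, 12.5 and 14.0 TPM for WT, 19.1, 19.3 and 17.3 for 5-FU res and 31.9, 27.4 and 30.7 for OX res. In DLD-1, GCLC was 41.5, 42.4 and 42.5 TPM for WT, 51.3, 49.8 and 48.9 for 5-FU res and 48.1, 49.8 and 50.3 for OX res. Within HCT116 and within SW480 the groups did not overlap and OX res was highest, while both resistant DLD-1 groups lay just above WT and overlapped each other. GCLC rose in HCT116 OX res at 1.03 (SE 0.076, limma adjusted p = 8.11e-08) and in SW480 OX res at 1.03 (SE 0.10, limma adjusted p = 8.04e-06). Both calls sat at the fold threshold: without HCT116 WT replicate 1 or HCT116 OX res replicate 3 the former was 0.95 or 0.98, and without SW480 WT replicate 2 or SW480 OX res replicate 1 the latter was 0.94 or 0.98. By median-of-ratios they were 0.38 and 0.60. In HCT116 5-FU res the log2 fold change was 0.62 (SE 0.076, limma adjusted p = 1.19e-05) and in SW480 5-FU res 0.36, which turned to -0.11 under median-of-ratios scaling.

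GCLM (chr1:94350755-94375012, minus strand) encodes the modifier subunit of the same ligase, and its promoter window holds the single match printed above. Levels in HCT116 were 12.2, 13.8 and 14.3 TPM for WT, 18.3, 16.9 and 18.5 for 5-FU res and 32.9, 32.2 and 34.2 for OX res. Levels in SW480 were 28.9, 20.0 and 26.8 TPM for WT, 16.9, 18.8 and 17.1 for 5-FU res and 35.5, 36.5 and 36.5 for OX res. Levels in DLD-1 were 32.4, 33 and 33 TPM for WT, 43.2, 41.7 and 38.6 for 5-FU res and 45.5, 46.7 and 47.9 for OX res. HCT116 and DLD-1 shared the order WT, 5-FU res and OX res without overlap, whereas in SW480 the 5-FU res libraries were the lowest, all below WT. GCLM rose only in HCT116 OX res among the 6 comparisons with WT, at 1.24 (SE 0.072, limma adjusted p = 1.01e-08) and 0.61 by median-of-ratios. In SW480 5-FU res it was -0.48 (SE 0.12, limma adjusted p = 0.00296), not called, and -0.92 relative to the median gene. In the same cells GCLC, its partner subunit, was 0.36, or -0.08 relative to the median gene. The SW480 WT libraries varied more for GCLM (SD 4.65 TPM, n = 3) than any other group, and SW480 WT replicate 2 was the lowest of its group for NFE2L2, NQO1, GCLC, GCLM, SRXN1 and TXNRD1.

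TXNRD1 (chr12:104609557-104744085, plus strand) encodes the cytosolic selenoenzyme that returns thioredoxin to its reduced state with NADPH. For TXNRD1, HCT116 libraries had 183, 182 and 194 TPM for WT, 228, 210.2 and 235 for 5-FU res and 402, 391 and 429 for OX res. For the same gene, SW480 libraries had 83.3, 57.6 and 76.1 TPM for WT, 121, 119.9 and 106 for 5-FU res and 165, 163 and 169 for OX res. Its DLD-1 values were 209, 208 and 200.5 TPM for WT, 296, 303 and 269 for 5-FU res and 206, 223 and 223 for OX res. OX res was above 5-FU res and WT in HCT116 and SW480 without overlap, but in DLD-1 the 5-FU res libraries were the high ones and OX res overlapped WT. TXNRD1 rose in HCT116 OX res at 1.13 (SE 0.053, limma adjusted p = 1.62e-09) and in SW480 OX res at 1.2 (SE 0.11, limma adjusted p = 5.72e-06). By median-of-ratios these were 0.46 and 0.76, both short of the threshold. In 5-FU res the log2 fold changes were 0.27 in HCT116, 0.68 in SW480 and 0.49 in DLD-1, with none called. SW480 WT replicate 2 was the lowest of the 27 libraries for TXNRD1, at 57.6 TPM.

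SRXN1 (chr20:627259-633844, minus strand) encodes sulfiredoxin, which repairs overoxidised peroxiredoxins. HCT116 gave 104, 108 and 111 TPM for WT, 90.5, 86.4 and 90.0 for 5-FU res and 315, 319 and 329.7 for OX res. SW480 gave 79.7, 69.8 and 77.8 TPM for WT, 46.2, 49.1 and 53.5 for 5-FU res and 94.9, 87.4 and 84.7 for OX res. DLD-1 gave 76.1, 74.3 and 71.3 TPM for WT, 89.6, 88.1 and 81.2 for 5-FU res and 100.3, 103 and 100.2 for OX res. The 3 HCT116 OX res libraries stood above all other 24, and in HCT116 and SW480 the 5-FU res libraries lay below WT. SRXN1 rose in HCT116 OX res to 2.98 times the WT mean, at 1.57 (SE 0.042, limma adjusted p = 2.06e-11), which was 0.97 relative to the median gene and 0.91 by median-of-ratios. In SW480 5-FU res it was -0.60 (SE 0.074, limma adjusted p = 2.59e-05), not called in TPM but called lower at -1.10 by median-of-ratios. The SW480 OX res value changed sign with scaling, from 0.23 to -0.21. In DLD-1 the log2 fold changes were 0.22 in 5-FU res and 0.45 in OX res, neither called.

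NQO1 (chr16:69740899-69760571, minus strand) encodes a quinone reductase and is widely used as a readout of NRF2. NQO1 in HCT116 was 350.0, 371 and 365 TPM for WT, 289, 315 and 314 for 5-FU res and 998, 1028 and 983 for OX res. NQO1 in SW480 was 146, 135 and 137 TPM for WT, 239.5, 229.7 and 232 for 5-FU res and 377, 368 and 393 for OX res. NQO1 in DLD-1 was 111, 113 and 113 TPM for WT, 272, 268 and 251 for 5-FU res and 199, 184 and 191 for OX res. It was called in 3 comparisons with WT, one per line. In HCT116 OX res it rose to 2.77 times the WT mean, at 1.47 (SE 0.044, limma adjusted p = 5.10e-11), in SW480 OX res to 2.72 times, at 1.44 (SE 0.046, limma adjusted p = 4.45e-09), and in DLD-1 5-FU res to 2.35 times, at 1.23 (SE 0.045, limma adjusted p = 1.85e-09). By median-of-ratios the values were 0.80, 0.99 and 1.25, with DLD-1 5-FU res past the threshold and the other two short of it. HCT116 5-FU res lay below WT without overlap, at -0.24 (SE 0.044, limma adjusted p = 0.000357). DLD-1 OX res lay above WT at 0.76 (SE 0.045, limma adjusted p = 9.49e-08) and below 5-FU res.

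HMOX1 (chr22:35776354-35790207, plus strand) encodes heme oxygenase, which breaks down heme and is under repression by BACH1 as well as activation by NRF2. HMOX1 levels in HCT116 were 27.3, 26.5 and 23.8 TPM for WT, 16.0, 21.9 and 18.5 for 5-FU res and 57.4, 59.6 and 59.9 for OX res. HMOX1 levels in SW480 were 11, 11.9 and 10.6 TPM for WT, 17.4, 18.7 and 23.5 for 5-FU res and 44, 42.5 and 43.0 for OX res. HMOX1 levels in DLD-1 were 25.9, 25.0 and 26.1 TPM for WT, 25.1, 24.7 and 22.6 for 5-FU res and 20.8, 20.9 and 19.8 for OX res. OX res was the highest group in HCT116 and SW480 and the lowest in DLD-1, without overlap in any line. HMOX1 rose in HCT116 OX res at 1.16 (SE 0.095, limma adjusted p = 2.15e-07) and in SW480 OX res at 1.86 (SE 0.10, limma adjusted p = 1.51e-07), where the mean was 3.87 times that of WT. By median-of-ratios these were 0.51 and 1.44, and only the second passed the threshold. In 5-FU res the log2 fold change was -0.45 in HCT116, 0.77 in SW480 and -0.09 in DLD-1, none of them called.

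Comparison by comparison, the resistant populations were set against WT cells of their line. In HCT116 OX res 8 of the 9 genes were called higher, all but KEAP1, and none lower, while 28.5% of the 14010 genes tested were called higher and 4.83% lower. The adjusted p alone was passed by 86.2% of genes there. The median of the 9 genes was 1.16 against 0.60 over all genes. Under median-of-ratios scaling 1 of the 9 was called higher (SLC7A11) and none lower, against 10.1% and 13.2% of all genes. FPKM as deposited left 1 call (SLC7A11) and quantile normalization 5. The 8 fold changes were above 0 and that of KEAP1 below 0 under each of these scalings. The median change also rose with transcript length, from 0.27 in the 25% of genes with the shortest transcripts to 0.83 in the 25% with the longest, and with that trend removed the 9 genes again had 15 calls across the 6 comparisons. The part that library composition takes in these changes was not tested beyond those scalings.

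In SW480 OX res 5 of the 9 genes were called higher (NQO1, HMOX1, GCLC, TXNRD1 and SLC7A11) and none lower, against 13.7% and 1.22% of 14039 genes. Their median was 1.03 against 0.36 over all genes. By median-of-ratios 2 were called higher (HMOX1 and SLC7A11) and none lower, against 5.52% and 4.32% of all genes, and the number called higher was 3 with FPKM as deposited and 4 by quantile normalization. In DLD-1 OX res no gene of the 9 was called in either direction, where 2.7% of 13467 genes were called higher and 0.913% lower (2.09% and 1.14% by median-of-ratios). There 8 of the 9, and 55.8% of all genes, had an unadjusted limma p under 0.05, 5 of the 8 above WT and 3 below. The median of the 9 genes there was 0.16 against 0.13 over all genes.

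The 5-FU res populations had 2 calls among these genes, both in DLD-1. None of the 9 genes was called in HCT116 5-FU res, where 11.6% of all genes were called higher and 3.82% lower, and 8 of the 9, against 76.3% of all genes, had an unadjusted limma p under 0.05, with 4 above WT and 4 below. Median-of-ratios scaling, which also gave no call there, called 7.09% of all genes higher and 7.64% lower. None was called in SW480 5-FU res, against a background of 18.3% higher and 2.85% lower, and 8 of the 9, against 78.8% of all genes, had an unadjusted limma p under 0.05, 6 of them above WT. There median-of-ratios called SRXN1 lower, against 8.14% of all genes higher and 7.99% lower. In DLD-1 5-FU res 2 of the 9 genes were called higher (NQO1 and SLC7A11) and none lower, against 2.12% and 1.76% of all genes, and both calls held by median-of-ratios (2.28% of all genes higher and 1.68% lower), with FPKM as deposited and by quantile normalization. Over the 6 comparisons with WT the split of the 9 genes' calls was 15 higher and 0 lower in TPM and 5 and 1 by median-of-ratios. An unadjusted limma p under 0.05 was reached in 48 of these 54 tests, against 71% of the tests over all genes.

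**Figure D2:**
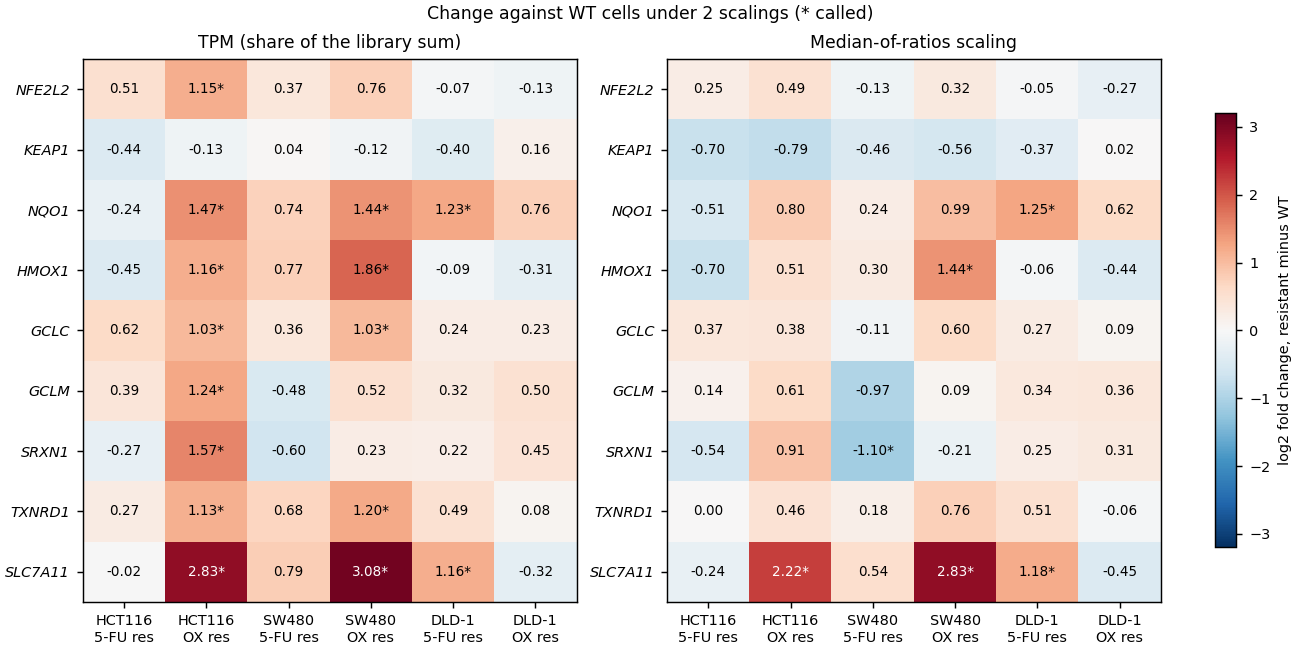
Log2 fold change of each gene in resistant against WT cells, in TPM on the left and under median-of-ratios scaling on the right, with colour from blue (lower) to red (higher) and asterisks on called values. The HCT116 OX res column has 8 asterisks on the left and 1 on the right, while both asterisks of DLD-1 5-FU res are present on either side.

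OX res was also set against 5-FU res within each line. In HCT116, 4 genes were called higher in OX res: SLC7A11 at 2.84, SRXN1 at 1.84 (SE 0.042, limma adjusted p = 4.74e-12), NQO1 at 1.71 (SE 0.044, limma adjusted p = 1.25e-11) and HMOX1 at 1.61 (SE 0.095, limma adjusted p = 1.55e-08). All 4 calls held under median-of-ratios, FPKM and quantile scaling, and the background was 17.3% called higher and 5.19% lower. In SW480, 3 were called higher (SLC7A11 2.30, HMOX1 1.09 and GCLM 1.0), against 4.61% higher and 6.49% lower over all genes. GCLM sat at the threshold, at 1.0 (SE 0.12, limma adjusted p = 2.82e-05), and lost its call without SW480 5-FU res replicate 1 or 3 or SW480 OX res replicate 2 or 3, at 0.97 to 0.99. In DLD-1, SLC7A11 was lower in OX res, with a log2 fold change of -1.47 (SE 0.071, limma adjusted p = 5.84e-09), and no other gene of the 9 was called, against 5.97% higher and 2.55% lower over all genes.

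The WT lines differed before any drug. Of 27 gene-by-pair differences 13 were called. SW480 WT was lower than HCT116 WT for SLC7A11 (-1.82), NQO1 (-1.37), TXNRD1 (-1.37) and HMOX1 (-1.14), where 25.1% of 15801 genes differed in either direction. DLD-1 WT was higher than HCT116 WT for SLC7A11 (1.97), GCLM (1.23) and NFE2L2 (1.08) and lower for NQO1 (-1.68), against 34.5%. Against SW480 WT, DLD-1 WT was higher for SLC7A11 (3.79), GCLC (1.51), TXNRD1 (1.51), NFE2L2 (1.22) and HMOX1 (1.13), against 35.9%. The widest of these, SLC7A11 between DLD-1 and SW480, had a limma adjusted p of 1.18e-20. The median gene was 0.31 and 0.32 higher in DLD-1 than in HCT116 and SW480, and by median-of-ratios NFE2L2 (0.61 and 0.71), GCLM against HCT116 (0.78) and HMOX1 against SW480 (0.66) were short of the threshold, while SRXN1 became a call, lower in DLD-1 than in HCT116 (-1.005). SW480 WT had the lowest group mean of 5 of the 9 genes, NFE2L2, HMOX1, GCLC, TXNRD1 and SLC7A11, while DLD-1 WT had the lowest of NQO1.

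Whether the response itself differed between lines was tested with interaction contrasts over all 27 libraries. SLC7A11 responded to OX selection differently in DLD-1 than in HCT116, by -3.14 (SE 0.13, limma adjusted p = 1.82e-15), and than in SW480, by -3.40 (SE 0.13, limma adjusted p = 2.61e-15). HMOX1 differed likewise, by -1.47 (SE 0.13, limma adjusted p = 8.77e-10) and -2.17 (SE 0.13, limma adjusted p = 4.15e-12). The OX response of TXNRD1 was smaller in DLD-1 by -1.05 against HCT116 and -1.12 against SW480, the latter -0.97 and not called without SW480 WT replicate 2. NFE2L2 (-1.29) and SRXN1 (-1.12) responded less in DLD-1 than in HCT116. Thus 5 of the 9 genes were called between DLD-1 and HCT116, against 29.1% of all genes, and 3 between DLD-1 and SW480, against 14.4%. By median-of-ratios 2 and 2 of these remained called, SLC7A11 and HMOX1 in each. Between SW480 and HCT116 only SRXN1 was called, at -1.34 (SE 0.078, limma adjusted p = 1.02e-12), against 19.5%, and the GCLC responses of these lines differed by 95% interval -0.23 to 0.23.

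For 5-FU, the response of NQO1 was higher in DLD-1 than in HCT116 by 1.47 (SE 0.059, limma adjusted p = 3.93e-15), and that of SLC7A11 by 1.18 (SE 0.13, limma adjusted p = 6.55e-08), so that 2 of the 9 genes were called against 18.5% of all genes. Between SW480 and HCT116 HMOX1 was called, at 1.22 (SE 0.13, limma adjusted p = 2.51e-08), against 19.8%. That difference was 1.004 by median-of-ratios and fell short with FPKM (0.98) and quantile normalization (0.89), while GCLM, -0.87 in TPM, was called lower under these 3 scalings, at -1.11, -1.07 and -1.003. None was called between DLD-1 and SW480, against 23.5%, though SRXN1 and GCLM were at 0.82 and 0.80, which became 1.30 and 1.26 and were called under median-of-ratios scaling.

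**Figure D3:**
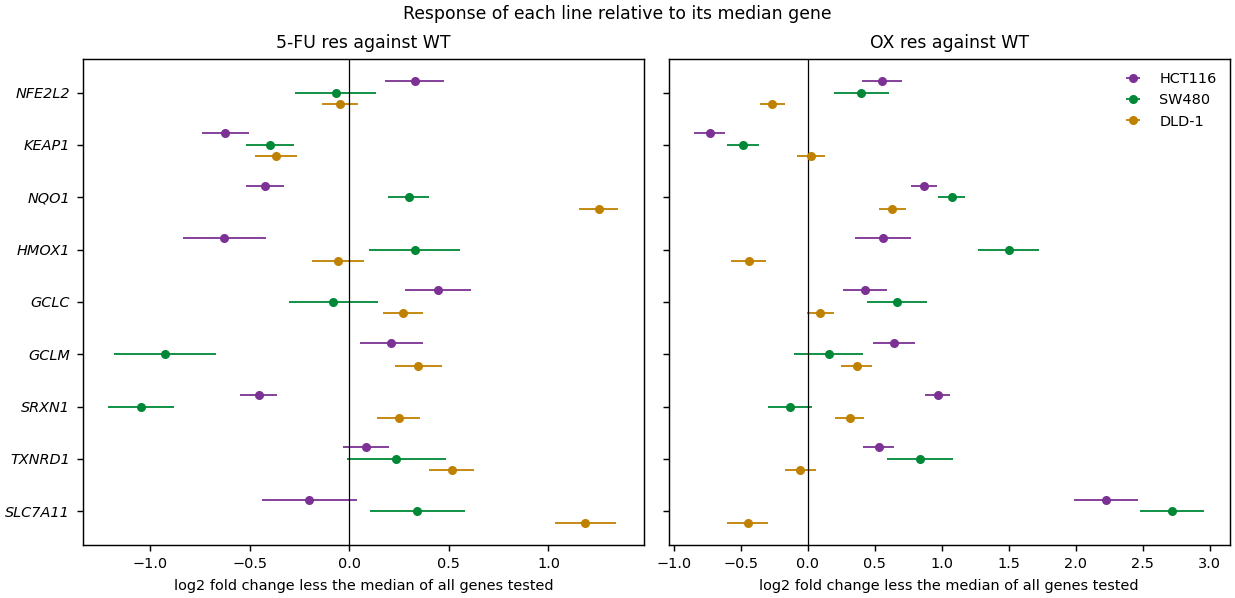
Log2 fold change of each gene in 5-FU res (left) and OX res (right) against WT, less the median of all genes tested, with bars for the 95% interval of the fold change and colours for the 3 lines. In OX res, SLC7A11 lies at 2.23 in HCT116 and 2.72 in SW480 but at -0.45 in DLD-1, and in 5-FU res NQO1 runs from -0.42 in HCT116 to 1.25 in DLD-1.

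The other genes of the pathway were described from a list of 79 genes in 5 groups, of which 73 to 76 passed the filter in a line. In HCT116 OX res 20 of 73 (27.4%) were called higher and 5 (6.85%) lower, against 28.5% and 4.83% of all genes. In SW480 OX res 10 and 1 of 75 were called (13.3% and 1.33%, against 13.7% and 1.22%), and in DLD-1 OX res 4 and 1 of 76 (5.26% and 1.32%, against 2.7% and 0.913%). In 5-FU res the counts were 6 higher and 10 lower in HCT116 (8.22% and 13.7%, against 11.6% and 3.82%), 11 and 6 in SW480 (14.7% and 8.0%, against 18.3% and 2.85%), and 4 and 2 in DLD-1 (5.26% and 2.63%, against 2.12% and 1.76%). The shares called higher in HCT116 OX res and SW480 OX res were close to those of all genes, and the same shares are the background of the group counts below. The median log2 fold change of the list was 0.59 in HCT116 OX res, where that of all genes was 0.60, and 0.15 against 0.36 in SW480 OX res. In HCT116 5-FU res it was -0.28 against 0.18, and in SW480 5-FU res 0.06 against 0.44, so in each of these the list lay at or below the median gene. In DLD-1 it was 0.19 against -0.03 in 5-FU res and 0.13 against 0.13 in OX res. The split of the list's calls turned with scaling, from 55 higher and 25 lower in TPM to 35 and 57 by median-of-ratios, though no gene called in TPM changed sign. Among the genes named below, BACH1 in HCT116 OX res (0.85), CHAC1 in SW480 OX res (0.92), and IDH2 (0.70) and AKR1C1 (0.93) in SW480 5-FU res were then short of the threshold.

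Among 14 regulators, of which 13 were tested, 5 rose in HCT116 OX res, 4 in HCT116 5-FU res, 2 in SW480 5-FU res, 1 in SW480 OX res and none in DLD-1, and none fell. Of all genes 28.5%, 11.6%, 18.3% and 13.7% were called higher in the first 4 of these comparisons. BACH1, the repressor that competes with NRF2 at HMOX1, rose from 4.77 ± 0.254 TPM in HCT116 WT to 14.8 ± 1.45 in 5-FU res and 14.7 ± 1.70 in OX res (SD, n = 3), at 1.45 (SE 0.099, limma adjusted p = 1.09e-07) and 1.44 (SE 0.099, limma adjusted p = 4.48e-08). It rose also in SW480 OX res, from 7.52 ± 1.90 to 29.0 ± 0.838 TPM, at 1.84 (SE 0.14, limma adjusted p = 1.73e-06). HMOX1 rose in the same 2 OX res populations, while in HCT116 5-FU res it was -0.45.

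In the glutathione group, 1 gene rose and 3 fell of 16 tested in HCT116 OX res, none and 3 in HCT116 5-FU res, 3 and 2 of 19 in SW480 5-FU res, 3 and none in SW480 OX res, 2 and none of 18 in DLD-1 5-FU res, and none in DLD-1 OX res. In HCT116 OX res 28.5% of all genes were called higher and 4.83% lower. CHAC1, which degrades glutathione, was called in 5 of the 6 comparisons. In HCT116 it was 4.83 ± 0.241 TPM in untreated cells, 1.69 ± 0.224 after 5-FU and 59.1 ± 5.09 after OX selection, which are called log2 fold changes of -1.12 and 3.36. It rose in both resistant SW480 populations, by 1.56 in 5-FU res and 1.28 in OX res. In DLD-1 it rose in 5-FU res, from 42.4 ± 2.47 to 91.5 ± 4.31 TPM at 1.09 (SE 0.056, limma adjusted p = 2.86e-08), and in OX res was -0.34, not called. CHAC1 and SLC7A11 were both called higher in HCT116 OX res, SW480 OX res and DLD-1 5-FU res, and CHAC1 was called also in 5-FU res of HCT116 and SW480, where SLC7A11 was not.

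Of the thioredoxin and peroxiredoxin genes, 4 rose (26.7%, against 28.5% of all genes) and none fell of 15 tested in HCT116 OX res, none and 2 in HCT116 5-FU res, and 1 and none in each resistant DLD-1 population. For SW480 the counts were 3 and 2 of 16 in 5-FU res and 2 and 1 in OX res. TXNIP, which binds and inhibits thioredoxin, rose in SW480 from 12.3 ± 1.09 TPM in WT to 296 ± 13.9 in 5-FU res and 99.7 ± 8.67 in OX res, at 4.48 (SE 0.079, limma adjusted p = 2.03e-11) and 2.92 (SE 0.079, limma adjusted p = 1.47e-09). It rose in DLD-1 OX res at 1.63 (SE 0.12, limma adjusted p = 6.14e-07). In HCT116 it did not pass the filter, with group means of 0.0508 ± 0.044 to 0.145 ± 0.0363 TPM. SESN2, a stress-induced sestrin, rose in HCT116 OX res by 2.5 and in DLD-1 5-FU res by 1.33 on the log2 scale. SESN3 rose by 1.65 and 1.40 in SW480 5-FU res and OX res, and by 2.47 in HCT116 OX res. PRDX4, the peroxiredoxin of the endoplasmic reticulum, fell in SW480 OX res from 242 ± 7.45 to 100.1 ± 2.14 TPM, at -1.26 (SE 0.045, limma adjusted p = 7.81e-09).

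NADPH, which TXNRD1, NQO1 and glutathione reductase all use, comes in part from the 8 enzymes of the supply group, and few of them were called. Against WT, 2 fell in HCT116 5-FU res and 1 each in HCT116 OX res and DLD-1 5-FU res, and 1 rose in each of SW480 5-FU res and DLD-1 OX res. IDH2, the mitochondrial NADP-dependent isocitrate dehydrogenase, was called in all 5. It fell in DLD-1 5-FU res (-1.07) and in both resistant HCT116 populations (-1.30 with 5-FU and -1.12 with OX), and rose in SW480 5-FU res (1.2) and DLD-1 OX res (1.34). The DLD-1 means were 128 ± 1.51 TPM for OX res, 50.2 ± 2.55 for WT and 23.4 ± 2.37 for 5-FU res.

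In the group of other known NRF2 targets 10 of 21 tested (47.6%) rose in HCT116 OX res and 1 (4.76%) fell, against 28.5% and 4.83% of all genes. In HCT116 5-FU res 2 rose and 3 fell, in SW480 5-FU res 2 and 2 of 19, in SW480 OX res 4 and none, and in DLD-1 1 and 1 of 21 in 5-FU res and 2 and 1 in OX res. AKR1C3, an aldo-keto reductase, rose from 2.14 ± 0.247 to 64.0 ± 2.57 TPM in HCT116 OX res, at 4.37 (SE 0.12, limma adjusted p = 2.06e-11), and fell from 21.3 ± 0.154 to 7.95 ± 1.46 in DLD-1 OX res, at -1.33 (SE 0.12, limma adjusted p = 2.83e-06). It rose also in SW480 5-FU res (2.91) and SW480 OX res (1.43). AKR1C1 rose in the same 3 populations, by 4.11, 1.06 and 1.42, and AKR1C2 rose in HCT116 OX res (2.73) and fell in DLD-1 5-FU res (-1.28). The AKR1C genes are near-identical copies, so the split of reads among them is uncertain.

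ABCC3 and ABCC2 are export pumps of glutathione and drug conjugates. ABCC3 rose in SW480 OX res (1.53) and in HCT116 with either drug (1.76 and 2.69), and in HCT116 its means were 11.4 ± 0.778, 40.9 ± 2.68 and 79.4 ± 9.85 TPM in WT, 5-FU res and OX res. ABCC2, a pump of the same family, fell in HCT116 OX res from 24.2 ± 0.504 to 8.61 ± 1.01 TPM, at -1.40 (SE 0.088, limma adjusted p = 2.05e-08). PIR, an iron-binding nuclear protein, fell in HCT116 5-FU res from 42.2 ± 1.36 to 9.92 ± 1.01 TPM and in SW480 5-FU res from 43.2 ± 2.66 to 6.30 ± 0.549, at -1.99 (SE 0.072, limma adjusted p = 8.02e-10) and -2.60 (SE 0.085, limma adjusted p = 1.46e-09). In HCT116 OX res PIR was 82.2 ± 3.79 TPM, at 0.95, not called.

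**Figure D4:**
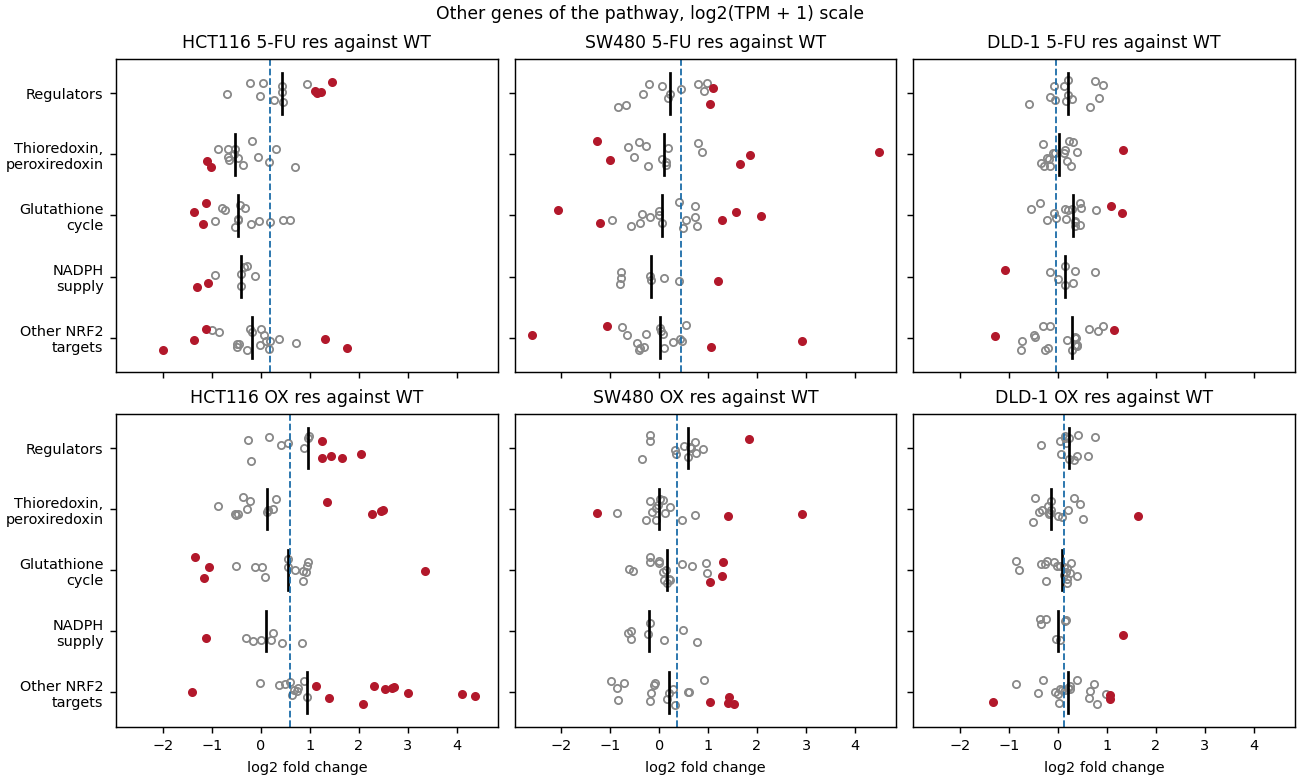
Log2 fold change of the other pathway genes in each resistant population against WT, 1 point per gene, filled red where called, with black lines at the group medians and a dashed blue line at the median of all genes tested. In HCT116 OX res 10 filled points of the NRF2 target group lie to the right of 1, and in DLD-1 OX res 3 filled points of that group are seen, 2 to the right and 1 to the left.

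The pattern of each gene over the 27 libraries was compared with that of 11311 genes of mean TPM of 5 or more, after the mean of each line was taken off, as a description only, since the libraries share their scaling and composition. Among the 9 genes the highest Pearson r were those of SLC7A11 with TXNRD1 (0.94), GCLC with NFE2L2 (0.93) and SLC7A11 with HMOX1 (0.91). KEAP1 ran from -0.32 with GCLC to 0.15 with SRXN1. The 3 genes most like NQO1 were PDLIM5 (0.96), KIF3C (0.95) and MYL12A (0.95). Those most like SLC7A11 were ANGPTL4 (0.97), MAGT1 (0.96) and C1RL (0.96), those most like TXNRD1 were ESYT1 (0.99), RAB3GAP2 (0.98) and C21orf91 (0.98), and those most like HMOX1 were HR (0.94), HPCAL1 (0.93) and SNTB1 (0.93). For NFE2L2 they were BICD1 (0.98), BMPR2 (0.97) and ADNP (0.97), for KEAP1 ROMO1, IGFLR1 and ZDHHC12 (each 0.93), and for GCLC MEX3C (0.98), STK4 (0.98) and ZDHHC9 (0.97). For GCLM they were COPB2 (0.98), SENP2 (0.96) and SUPT20H (0.96), and for SRXN1 TRMT6 (0.97), NOP14-AS1 (0.96) and CST3 (0.96). No gene among these 27 was another of the 9.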

How the data were processed

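RNA-seq of 27 libraries was used, 3 per group and 9 per line. The deposited values are FPKM per gene symbol on hg19 (GRCh37), and the submitters' processing notes name TopHat2 2.1.1, Bowtie2 2.2.8, SAMtools 0.1.18 and Cuffdiff 2.2.1. Read counts were not used here, so counting error is not given. FPKM was divided by each library's sum to give TPM. For each line, limma 3.58.1 (R 4.3.3) was fitted by lmFit and eBayes with trend to log2(TPM + 1) of the 9 libraries, keeping genes that reached 1 TPM in 3 of them. WT lines and interactions were fitted over all 27 libraries. Tests were 2-sided with Benjamini-Hochberg adjustment over all genes tested, and the script was checked on simulated data. Fold changes on this scale understate those of low genes. The genes, the pathway list and its groups were chosen with earlier results of these data known. Pathway genes were named where they had the largest rise or fall that was called in a comparison with WT, or were called in the same direction in at least 3 of 6, and the 3 genes most like each of the 9 by Pearson r were named. Alternatives covered pseudocount, filter, scaling, trend, replicate block, transcript length (GENCODE transcripts, 22422 symbols matched and 3833 not) and leaving out each library.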

Additional observations from a re-analysis of the deposited data

Results flagged for a closer look

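The response of a gene to drug selection differed between lines by the interaction test in 12 of 54 gene-by-contrast comparisons, each given as a log2 difference with both drugs set against the WT cells of the same line. Of all genes, 14.4% to 29.1% were called in these contrasts. In 5-FU res, HMOX1 was 1.22 higher in SW480 than in HCT116, and NQO1 and SLC7A11 were 1.47 and 1.18 higher in DLD-1 than in HCT116. In OX res, SRXN1 differed by -1.34 between SW480 and HCT116. Between DLD-1 and HCT116 the OX res differences were -1.29 for NFE2L2, -1.47 for HMOX1, -1.12 for SRXN1, -1.05 for TXNRD1 and -3.14 for SLC7A11. Between DLD-1 and SW480 they were -2.17 for HMOX1, -1.12 for TXNRD1 and -3.40 for SLC7A11. By median-of-ratios NFE2L2 (-0.86), SRXN1 (-0.70) and TXNRD1 (-0.62) were short of the threshold between DLD-1 and HCT116. So was TXNRD1 between DLD-1 and SW480 (-0.85). Line and library series cannot be told apart in the contrasts with DLD-1.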

How the results depend on the processing

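Scaling mattered most. The calls of the 9 genes higher than WT, 15 of 54 in TPM, were 6 with FPKM as deposited and 5 by median-of-ratios, and those lower, 0 of 54, were 1 and 1 (SRXN1 in SW480 5-FU res). Of all genes, 2.12% to 28.5% per comparison were called higher in TPM and 2.09% to 10.1% by median-of-ratios. Those called lower were 0.913% to 4.83% and 1.14% to 13.2%. In TPM and by median-of-ratios these shares are also the background of the pathway list calls. Of the 54, 48 had an unadjusted limma p under 0.05 in TPM, against 71% over all genes. Differences between WT lines, 13 in TPM, where 25.1% to 35.9% of all genes differed, were 8 with FPKM. Pathway list calls higher, 55, were 32 with FPKM and 35 by median-of-ratios, and calls lower, 25, were 51, 57 and, with the length trend removed, 15. Leaving out each library gave 14 to 15 calls of the 9 genes higher than WT. Other choices (pseudocount, filters, trend, only 2 groups in the fit) gave 14 to 16, and quantile normalization 11.

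Small differences changed sign under FPKM, median-of-ratios and quantile scaling, in that order where 3 values are given. In SW480 5-FU res these were NFE2L2 (-0.0718 and -0.128 in the former pair), KEAP1 (-0.399, -0.458 and -0.204) and GCLC (-0.0599, -0.115 and -0.142). In OX res, SRXN1 in SW480 was -0.198 and -0.214, and TXNRD1 in DLD-1 -0.0651, -0.0624 and -0.0188. KEAP1 in HCT116 OX res against 5-FU res was -0.0365, -0.0865 and -0.0607. Between WT lines, DLD-1 less HCT116 was -0.178 and -0.174 for KEAP1 and -0.329 and -0.325 for TXNRD1, and DLD-1 less SW480 was -0.121, -0.112 and -0.0576 for GCLM. Quantile scaling alone turned NQO1 in HCT116 5-FU res (0.0686) and GCLM in DLD-1 OX res against 5-FU res (-0.000991). The length trend removed turned KEAP1 in OX res of HCT116 (0.00306) and SW480 (0.0501). Leaving out 1 library turned HMOX1 between DLD-1 and HCT116 WT (-0.0644 to 0.0293), GCLC in DLD-1 OX res against 5-FU res (-0.0321 to 0.00225), SRXN1 between DLD-1 and SW480 WT (-0.0898 to 0.00397) and SLC7A11 in HCT116 5-FU res (-0.0618 to 0.0533, and -0.573 to 0.0533 over all alternatives, with an adjusted p under 0.05 in 4 of them). Without SW480 WT replicate 2, GCLM in SW480 less HCT116 WT was called, at 1.001. The cause of these changes was not tested.

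With the replicate block the calls were again 15, 7, 1, 13 and 12 for higher than WT, OX res above and below 5-FU res, WT lines and interactions. Deviations of same-numbered libraries correlated at -0.18 to 0.18 in 27 pairs, 7 of them over 0.1. In 11 of 27 comparisons of a library with another group of its line, the best match had its own number. For HCT116 WT against OX res the same-numbered pairs were at 0.07, 0.16 and 0.13, each the best match. Correlations this weak cannot decide whether same-numbered libraries share more than a number. Depth is known only as a ratio between libraries, and genes near 1 TPM, such as SLC7A11 in SW480 WT, are the least precise.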
